A study of Mus musculus with 31 samples.

Results

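The respiratory chain and ATP synthase were followed gene by gene across 31 RNA-seq libraries of Panc02, a pancreatic adenocarcinoma line of the mouse. Members were chosen by symbol: mitochondrially coded mRNAs of the Nd, Co, Cyt and Atp kinds, and nuclear genes named as Nduf, Sdh, Uqcr, Cox4 to Cox8 or Atp5 subunits, leaving out names marked as pseudogenes. The rule took 99 of 60172 gene identifiers, 13 of them mitochondrially coded and 86 nuclear. Complex I held 7 mitochondrial and 37 nuclear members, complex II 4 nuclear, complex III 1 and 8, complex IV 3 and 19, and complex V 2 and 18. Ndufa4 was placed in complex I by its name, although its protein is now known as a subunit of complex IV, and Cox6c2 is annotated as a pseudogene.

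Complexes I and II pass electrons from NADH and succinate to ubiquinone, complex III passes them on to cytochrome c, and complex IV hands them to oxygen. Complexes I, III and IV pump protons across the inner membrane, and complex V, the ATP synthase, uses the proton gradient to make ATP. All of them but complex II are built from both genomes: the mitochondrial DNA codes for the most hydrophobic core subunits, transcribed as long precursors that are then cut, and the nucleus codes for the rest.

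The libraries came in 3 tables that were analysed separately. In the first, spheroids of WT cells embedded in Matrigel received control medium, M0-CM or M1-CM, media conditioned by untreated bone marrow macrophages or by macrophages given IFNγ and lipopolysaccharide (3 libraries each). Control medium was matched in serum level to the conditioned media. Those media also held L929 cell supernatant, which the study does not name for control medium. In the second, WT and Cxcl5-/- cells were grown in 2D or as 3D spheroids (3 libraries each). In the third, the overexpression table, all in 3D, there were WT cells (2 libraries), Cxcl5-/- cells (2), Cxcl5-/- cells overexpressing a mutant, stabilised Hif1a (Hif1aOE Cxcl5-/-, 3) and Cxcl5-/- cells overexpressing Myc (MycOE Cxcl5-/-, 3). The knockout was made in WT cells with a lentiviral CRISPR vector. Hif1a and Myc were delivered to Cxcl5-/- cells by a retroviral vector, so both overexpressing lines also carry the knockout. The study describes puromycin selection after infection for these lines and names no empty-vector control. The labels of the overexpression table name a different cell line for each library, from Panc03 to Panc12, and Panc02 was taken from the study's text. The study's methods speak in general of biological replicates and independent experiments, without saying which libraries came from separate cultures, and they do not say whether the knockout line is 1 clone. Where libraries share a culture, p-values measure the spread between these libraries, which may be technical.

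Depth was 41542533 to 78498230 counts per library. Levels are given as CPM, each gene's count set to a common library size after TMM scaling, which sets the bulk of genes level between libraries. The targeted gene went against a label: Cxcl5 transcript ranged from 40.9 to 65.5 CPM under the label 3D Cxcl5-/- and from 24.5 to 28.5 CPM under 3D WT, whereas it was at 36.6 to 40.2 CPM in the Cxcl5-/- and 64.1 to 67.6 CPM in the WT libraries of the overexpression table. Gene counts do not show the edited site, so they do not check the knockout itself, which the study checked by immunoblot. Myc was at 397 to 548 CPM in MycOE Cxcl5-/- and 20.0 to 22.3 CPM in Cxcl5-/-. Hif1a was at 243 to 296 CPM in Hif1aOE Cxcl5-/-, 133 to 144 CPM in Cxcl5-/- and 241 to 271 CPM in MycOE Cxcl5-/-.

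Other features of the libraries moved with the groups. Summed epithelial and ductal markers (8 genes) were at 852 to 1096 CPM in 3D WT, 217 to 236 CPM under the label 3D Cxcl5-/- and 546 to 593 CPM in 2D WT, with Cdh1 and Epcam at 0 in 2D WT and in 3D Cxcl5-/-. Summed fibroblast markers were at 157 to 168 CPM in 3D WT and 394 to 449 CPM in 3D Cxcl5-/-, and in the overexpression table at 77.1 to 82.7 CPM in WT, 452 to 457 CPM in Cxcl5-/-, 133 to 175 CPM in Hif1aOE Cxcl5-/- and 322 to 344 CPM in MycOE Cxcl5-/-. Summed mesenchymal markers were at 3867 to 4015 CPM in 2D WT, 6441 to 7275 CPM in 3D WT and 6418 to 9330.2 CPM in 3D Cxcl5-/-, and in the overexpression table at 7815 to 7950.4 CPM in WT, 12922 to 12956 CPM in Cxcl5-/-, 5167 to 6798 CPM in Hif1aOE Cxcl5-/- and 3028 to 3444 CPM in MycOE Cxcl5-/-. The epithelial sum there was 855 to 902 CPM in WT, 287 to 302 CPM in Cxcl5-/-, 704 to 837 CPM in Hif1aOE Cxcl5-/- and 267 to 311 CPM in MycOE Cxcl5-/-. Single markers did not all follow the sums. From 3D WT to 3D Cxcl5-/-, edgeR at an adjusted p under 0.05 put 2 of 5 fibroblast markers higher and 3 lower (median log2 fold change -1.27). Of 4 mesenchymal markers it put 2 higher and 2 lower (median -0.39). From WT to Cxcl5-/- of the overexpression set it put 4 of 5 fibroblast markers higher and 0 lower. Of 4 mesenchymal markers it put 2 higher and 1 lower there. Genes with at least 1 count numbered 43037 and 43048 in the WT libraries of the overexpression table and 26886 to 31338 in its other libraries, and 23370 to 24575 in 2D, 29547 to 31449 in 3D WT and 27225 to 27639 in 3D Cxcl5-/-. Their part in the results below was not tested. In bulk samples, fewer cells of a kind and less RNA per cell cannot be told apart.

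Several mitochondrial mRNAs have nuclear copies of the same or nearly the same sequence that also hold counts, so the sequences are given first. A block on chromosome 1 of GRCm38, 24611535 to 24616197 on the minus strand, is annotated as pseudogenes of mt-Co1, mt-Co2, mt-Atp6, mt-Co3, mt-Nd3, mt-Nd4l and mt-Nd4. Over their aligned length the copies of mt-Co2 (681 bases), mt-Atp6 (678), mt-Co3 (783), mt-Nd4l (294) and mt-Nd4 (876 of its 1378) had 0 differences, and Gm28438, the copy of mt-Nd3, differed at 1 of 345 bases. In the 2D and 3D table the copy in this block held 50.7% of the summed count of mt-Nd3 and its copy, 52.9% for mt-Nd4l, 49.97% for mt-Co2, 49.95% for mt-Co3, 50.4% for mt-Atp6, 27.3% for mt-Nd4 and 14.6% for mt-Co1. Over the aligned bases mt-Nd3 and its copy differ by T3C, counted from 1 at the 5′ end of the mRNA, and it is in capitals in the first 33 bases of each.

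mt-Nd3: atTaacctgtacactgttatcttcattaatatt
Gm28438: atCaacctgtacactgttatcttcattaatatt

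The counts listed for these mRNAs may therefore be only a part of the reads of such sequences, and the order of levels between mitochondrial mRNAs carries this. mt-Nd1, mt-Nd6, mt-Cytb and mt-Atp8 had no annotated copy, and for mt-Nd2 and mt-Nd5 copies held at most 0.479% of the summed count. Among the nuclear members 26 of 86 had an annotated copy, and for 12 of them it held over 5% of the summed count in a table, with 31.0% to 33.0% for Atp5g2, 32.6% to 36.7% for Ndufa12 and 20.8% to 24.5% for Atp5l. Adding the copies to their genes, an alternative chosen after seeing the data, changed none of the members' calls printed here. mt-Nd5 and mt-Nd6 overlap in part on opposite strands, and mt-Atp8 with mt-Atp6 and mt-Nd4l with mt-Nd4 on the same strand. How strand was counted is not given in the sources used here, so reads in the overlaps cannot be told apart.

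Promoters are shown for 4 nuclear members on which the comparisons below turn: Ndufv3 and Cox7a1, which were higher in 3D, and Cox6a1 and Atp5g2, which had the largest called falls from 3D WT to 3D Cxcl5-/- among nuclear members. Each line holds the 250 bases before the RefSeq start, 5′ to 3′ along the gene's strand. Capitals mark matches, on either strand, to GCATGCGC (the NRF1 core), CCGGAAG (the ETS core bound by GABPA), and ACGTG and GCGTG (the 2 forms of the hypoxia response element core).

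Ndufv3, GRCm38.p6 chr17:31519865-31520114, plus strand: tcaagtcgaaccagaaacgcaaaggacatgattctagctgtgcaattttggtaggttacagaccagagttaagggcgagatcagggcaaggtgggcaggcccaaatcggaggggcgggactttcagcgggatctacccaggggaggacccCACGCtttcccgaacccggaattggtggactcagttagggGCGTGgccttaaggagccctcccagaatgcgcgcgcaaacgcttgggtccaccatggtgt
Cox7a1, GRCm38.p6 chr7:30183921-30184170, plus strand: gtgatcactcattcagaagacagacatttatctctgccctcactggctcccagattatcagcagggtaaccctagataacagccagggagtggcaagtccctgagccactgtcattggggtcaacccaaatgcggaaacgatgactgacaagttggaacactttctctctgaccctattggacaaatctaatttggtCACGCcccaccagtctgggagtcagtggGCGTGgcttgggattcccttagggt
Cox6a1, GRCm38.p6 chr5:115348959-115349208, minus strand: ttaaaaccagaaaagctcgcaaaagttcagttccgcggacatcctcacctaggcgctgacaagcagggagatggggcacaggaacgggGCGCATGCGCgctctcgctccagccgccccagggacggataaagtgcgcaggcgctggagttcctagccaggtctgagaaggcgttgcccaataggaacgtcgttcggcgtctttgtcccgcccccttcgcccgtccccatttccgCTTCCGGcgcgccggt
Atp5g2, GRCm38.p6 chr15:102671048-102671297, minus strand: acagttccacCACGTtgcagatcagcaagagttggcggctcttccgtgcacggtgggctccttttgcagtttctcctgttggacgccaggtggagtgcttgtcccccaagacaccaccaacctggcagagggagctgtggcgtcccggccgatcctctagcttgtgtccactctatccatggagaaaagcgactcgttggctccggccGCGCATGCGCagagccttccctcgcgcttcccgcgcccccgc

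The Ndufv3 and Cox7a1 windows each held 2 matches to GCGTG or its reverse complement and none to the NRF1 or ETS cores. The Cox6a1 and Atp5g2 windows held the run GCGCATGCGC, which matches the NRF1 core on both strands. RefSeq promoters (250 bases before to 50 after the start) were found for 69 of the 84 nuclear members with a count. The NRF1 core was in those of 10 members (14.5%) against 3.05% of 27025 genes, and the ETS core in 17 (24.6%) against 9.93%. GCGTG was in 38 (55.1%) against 35.2%, ACGTG in 18 (26.1%) against 21.8%, and the E-box CACGTG, which contains ACGTG, in 6 (8.70%) against 8.09%. A match to these letters is a description of the window and not a binding site.

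Set per kilobase of exon, the mitochondrial complex IV mRNAs stood above all nuclear subunits in 2D WT: mt-Co1 was at 3244 ± 262 CPM per kilobase (SD, n = 3), mt-Co3 at 1849 ± 52.3 and mt-Co2 at 638. The highest nuclear members on this scale were Cox8a at 412, Atp5a1 at 355 and Atp5b at 315 CPM per kilobase. Levels within the mitochondrial genome were uneven, with mt-Nd1 at 276, mt-Nd5 at 75.0, mt-Nd4 at 56.8 and mt-Nd4l at 24.3 CPM per kilobase. The median nuclear member was at 39.5 CPM per kilobase in complex I, 43.1 in II, 93.5 in III, 49.2 in IV and 63.9 in V.

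Summed over members, nuclear subunits took 1.06% ± 0.0230 of all counts in 2D WT and 0.708% ± 0.0438 in 3D WT (SD, n = 3), with 1.03% to 1.07% against 0.663% to 0.750% and no overlap. The libraries labelled 3D Cxcl5-/- lay at 0.631% to 0.756% and overlapped 3D WT. Mitochondrially coded members took 0.799% in 2D WT and 0.849% in 3D WT, so their ratio to the nuclear members went from 0.757 to 1.20, and it was 1.29 in 3D Cxcl5-/-. In the overexpression table the nuclear share was 0.801% and 0.803% in WT, 0.564% and 0.579% in Cxcl5-/-, 0.898% to 1.09% in Hif1aOE Cxcl5-/- and 1.10% to 1.22% in MycOE Cxcl5-/-. The mitochondrial share there was 1.77% and 1.89% in WT and had a mean of 1.48% in Cxcl5-/-, 1.51% in Hif1aOE Cxcl5-/- and 1.52% in MycOE Cxcl5-/-, so the nuclear share separated the overexpressing lines from Cxcl5-/- and the mitochondrial share did not.

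**Figure D1:**
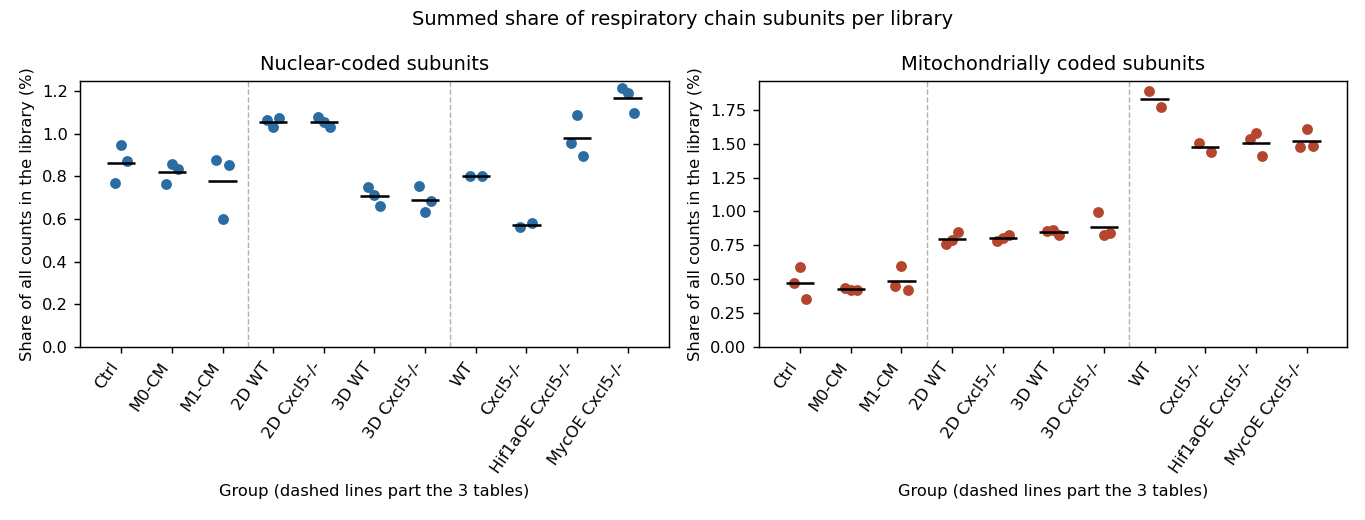
Share of all counts in each library (%) taken by the nuclear and by the mitochondrially coded members, in 11 groups of 3 tables separated by dashed lines, with a point per library and a bar at the mean. The nuclear share is 1.06% in 2D WT and 0.708% in 3D WT, and in the overexpression set 0.572% in Cxcl5-/-, 0.980% in Hif1aOE Cxcl5-/- and 1.17% in MycOE Cxcl5-/-.

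Genes with too few counts were left out by edgeR's filter: 93 of 99 members were tested in the 2D and 3D table, 94 of 99 in the overexpression table and 91 of 98 in the conditioned medium table. Those never tested were the second Atp5o identifier and the tissue-restricted paralogs Cox4i2, Cox6b2, Cox7b2 and Cox8c, and Cox8b and Cox6a2 were tested in some tables only. Their highest count in a table where they were not tested was 21. A call is an adjusted p under 0.05 over all genes of a table by edgeR's quasi-likelihood test, and folds are log2 fold changes with their standard error.

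The first comparison asks how 3D culture changes WT cells. More nuclear subunits were lower than higher in 3D: 35 of 80 tested fell and 6 rose, where 22.0% of all tested genes fell and 22.2% rose, and the median log2 fold change was -0.25 against 0.00 over all genes. With library totals in place of TMM, 58 fell and 4 rose. The TMM factors were 0.820 to 0.912 in 3D WT and 0.994 to 1.02 in 2D WT. Library totals thus put every gene lower in 3D than TMM does, and the larger count is not about the members alone. Over both genomes 8 members were higher, and 5 without 2D WT replicate 2. All 7 mitochondrially coded complex I mRNAs fell, while mt-Co1 and mt-Co2 rose. Of 11 nuclear subunits listed as core, from Ndufs1 in complex I to Atp5b in complex V, 9 fell and 0 rose.

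In complex V, 10 of 17 nuclear members fell, with a median log2 fold change of -0.37. Atp5b, the catalytic β subunit, was at 1347, 1247 and 1413 CPM in the 2D WT libraries and 894, 746 and 786 CPM in 3D WT. The groups did not overlap (log2 fold change -0.72 ± 0.09 (SE), edgeR adjusted p = 2.79e-05). Atp5a1, the α subunit, fell by 0.84 on the log2 scale (edgeR adjusted p = 1.49e-05).

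In complex I, 17 of 37 nuclear members fell, among them Ndufs1, the largest iron-sulphur subunit of the NADH-oxidising arm (log2 fold change -0.79 ± 0.09 (SE), edgeR adjusted p = 1.03e-05), and Ndufa4, placed here by name, had the largest fall (log2 fold change -0.95 ± 0.15 (SE), edgeR adjusted p = 0.000196). In complex II the membrane anchors moved apart: Sdhd fell (log2 fold change -0.51 ± 0.09 (SE), edgeR adjusted p = 0.000488) and Sdhc rose (log2 fold change 0.35 ± 0.12 (SE), edgeR adjusted p = 0.0357). The Sdhc call was lost on leaving out any 1 of 5 of the 6 libraries, with adjusted p from 0.0538 to 0.109, and with library totals. Complex III had 4 of 8 nuclear members lower, with Uqcrb, a small ubiquinone-binding subunit, at a log2 fold change of -0.67 ± 0.14 (SE). Complex IV had 1 of 14 lower, Cox5a at -0.30 (edgeR adjusted p = 0.0395), a call that was also lost without any 1 of 5 libraries (adjusted p from 0.0501 to 0.227).

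**Figure D2:**
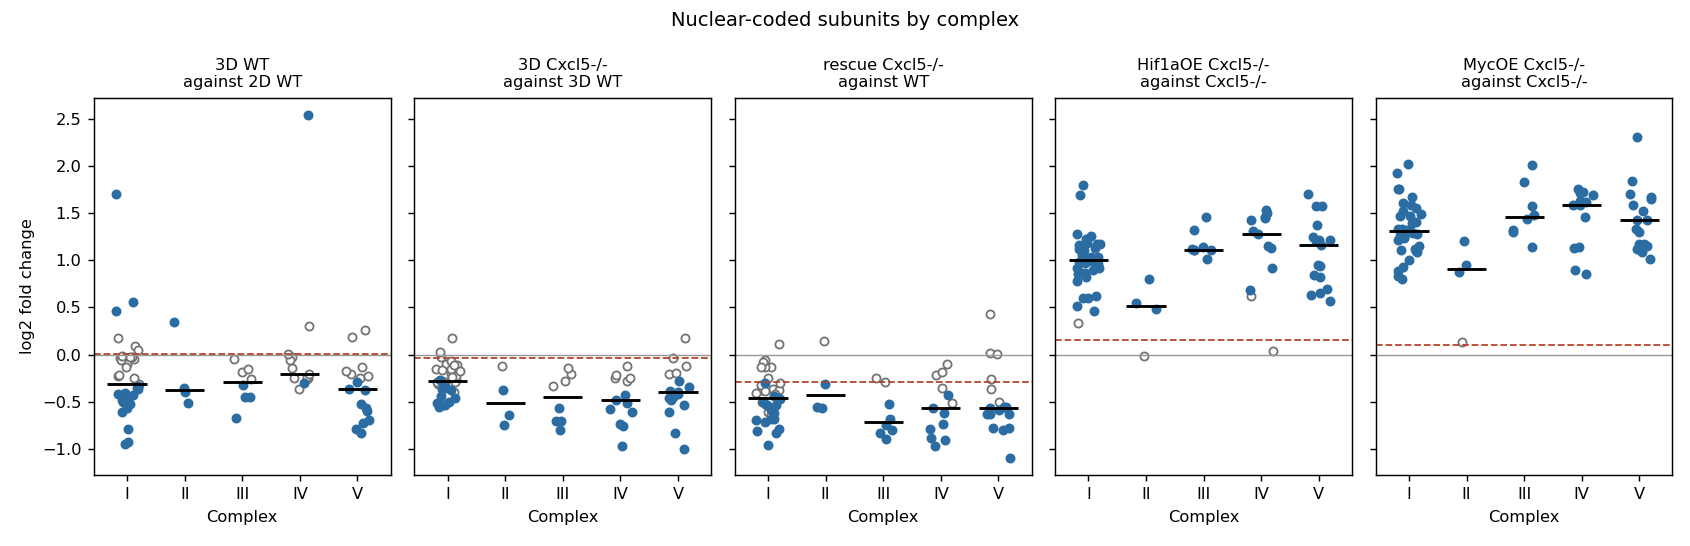
Log2 fold change of each tested nuclear member by complex in 5 comparisons, one panel each; filled points passed the test, open grey points did not, black bars are complex medians and the red dashed line is the median of all genes (Cox6a2 and Cox8b, at few counts, are left out). Most points lie below the line in 3D against 2D and in the knockouts, and above it in the overexpressing lines, where the complex medians run from 0.52 to 1.59.

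The nuclear members that rose in 3D WT were few. Beside Sdhc, given above, those named here are accessory or tissue-type subunits. Ndufv3, an accessory subunit of the flavoprotein part of complex I, was at 36.0, 31.4 and 32.1 CPM in 2D WT and 124, 94.9 and 105 CPM in 3D WT (log2 fold change 1.71 ± 0.12 (SE), edgeR adjusted p = 1.17e-07). Cox7a1, the muscle-type paralog of Cox7a2, was at 0.886, 1.05 and 0.959 CPM in 2D WT and 5.70, 5.67 and 5.57 CPM in 3D WT (log2 fold change 2.54 ± 0.17 (SE), edgeR adjusted p = 6.12e-08). Every 3D library lay above every 2D library for both genes.

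Cox6a2, the muscle-type paralog of Cox6a1, had 0 counts in all 2D WT libraries and 42 to 55 in 3D WT, which is at least 17.5-fold higher against a floor of 3 counts per library. Ndufa7 (log2 fold change 0.56 ± 0.15 (SE), edgeR adjusted p = 0.00732) and Ndufa6 (log2 fold change 0.46 ± 0.15 (SE), edgeR adjusted p = 0.0219), accessory subunits of complex I, also rose, and the Ndufa6 call was lost without 2D WT replicate 2 (adjusted p = 0.0675) and with library totals. The Cox7a paralog group was counted as Cox7a1, Cox7a2 and Cox7a2l. Of its counts Cox7a1 went from 0.337% in 2D WT to 1.81% in 3D WT. Cox7a2 went from 42.4% to 33.5%, and Cox7a2l from 57.2% to 64.7%. Atp5g2, one of 3 genes for the c-ring subunit, went from 33.3% of Atp5g counts in 2D WT to 47.8% in 3D WT and was at 36.5% in 3D Cxcl5-/-.

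**Figure D3:**
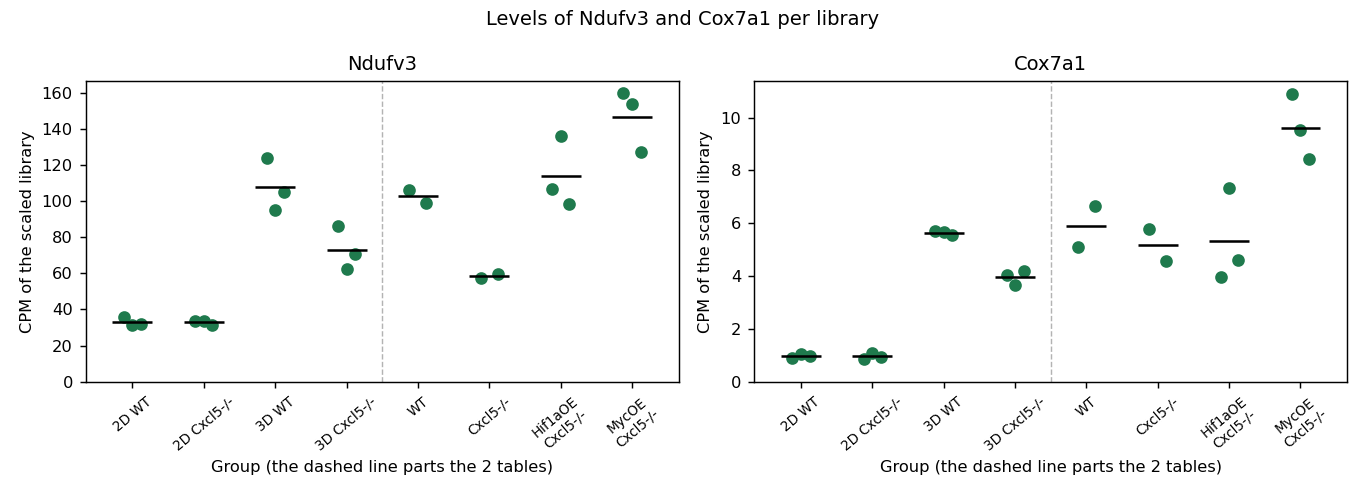
CPM of Ndufv3 and Cox7a1 in each library of the 2D and 3D table and of the overexpression table, with a point per library and bars at the group means. In the 2D and 3D table both genes are higher in every 3D than in every 2D library, and in the overexpression set Ndufv3 is lowest in Cxcl5-/-, at 57.3 and 59.9 CPM.

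The second comparison asks what the Cxcl5 knockout changes in 3D. In the libraries labelled 3D Cxcl5-/-, 39 of 80 nuclear members were lower than in 3D WT and 0 higher (9 and 6 with library totals in place of TMM), where 25.3% of all tested genes fell and 19.7% rose. The median was -0.32 against -0.04 over all genes. Mitochondrially coded mRNAs split: mt-Nd1, mt-Nd2, mt-Nd4, mt-Nd5, mt-Cytb and mt-Atp6 rose, and mt-Co1 and mt-Co2 fell.

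The nuclear count depends on the scaling and on single libraries. With library totals the median over all genes shifted from -0.04 to 0.35; relative to that median, nuclear members were at -0.28 with TMM and -0.29 with totals. The nuclear shares of counts in both groups overlap, as given above. The 39 lower nuclear members became 72 without 3D Cxcl5-/- replicate 1, where 26.5% of all genes fell, and 19 without replicate 2, where 19.2% fell.

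By complex the lower calls were 12 of 37 in I, 3 of 4 in II, 4 of 8 in III, 8 of 14 in IV and 12 of 17 in V. Cox6a1, a complex IV subunit, was at 116, 93.3 and 105 CPM in 3D WT and 65.2, 41.1 and 54.2 CPM in 3D Cxcl5-/- (log2 fold change -0.97 ± 0.13 (SE), edgeR adjusted p = 5.85e-05). Atp5g2 was at 201, 148 and 189 CPM in 3D WT and 117, 68.6 and 83.1 CPM in 3D Cxcl5-/- (log2 fold change -1.003 ± 0.16 (SE), edgeR adjusted p = 0.000189). The groups did not overlap for either gene.

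Uqcrfs1, the Rieske iron-sulphur protein of complex III, was at 88.5, 83.3 and 82.8 CPM in 3D WT and 56.3, 44.3 and 45.3 CPM in 3D Cxcl5-/- (log2 fold change -0.80 ± 0.10 (SE), edgeR adjusted p = 1.60e-05), and Uqcrc2, a core subunit beside it, was lower by a similar size (log2 fold change -0.71 ± 0.09 (SE), edgeR adjusted p = 3.33e-05). Sdhd fell (log2 fold change -0.75 ± 0.09 (SE), edgeR adjusted p = 2.23e-05). These 5 calls held with library totals. Ndufv3 (log2 fold change -0.56 ± 0.12 (SE), edgeR adjusted p = 0.00176), Atp5b (log2 fold change -0.48 ± 0.09 (SE), edgeR adjusted p = 0.000930) and Cox7a1 (log2 fold change -0.51 ± 0.16 (SE), edgeR adjusted p = 0.0171) were lower but lost their calls with library totals, and the Cox7a1 call was also lost without 3D Cxcl5-/- replicate 2 (adjusted p = 0.0908).

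In 2D the same genotype contrast called 0 members in either direction by edgeR, where 3.86% of tested genes rose and 3.17% fell. Without adjustment, 2 of 93 members were higher and 6 lower at p under 0.05, where 2012 of 21367 genes were higher and 1892 lower. DESeq2's Wald test called 1 member higher, a count given without its share over all genes. From 2D to 3D within the Cxcl5-/- label, 63 of 80 nuclear members fell and 3 rose (Ndufv3, Cox7a1 and Cox6a2), where 28.2% of all genes fell and 28.7% rose, and all 11 core subunits fell. Atp5b had a log2 fold change of -1.22 ± 0.10 (SE), Uqcrfs1 -1.07 ± 0.10 (SE) and Cox7c, a small complex IV subunit, -1.03 ± 0.16 (SE).

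Whether the genotype effect differed by culture was tested as an interaction, 3D minus 2D. It called 18 nuclear members lower and 0 higher, where 16.1% of all genes were called lower and 11.1% higher, and 6 mitochondrially coded mRNAs higher. Of the nuclear members called, the largest interactions were those of Atp5g2 (log2 fold change -1.06 ± 0.22 (SE), edgeR adjusted p = 0.00365), Cox6a1 (log2 fold change -0.89 ± 0.19 (SE), edgeR adjusted p = 0.00363) and Uqcrc2 (log2 fold change -0.81 ± 0.13 (SE), edgeR adjusted p = 0.000503), and Uqcrfs1 was also called (log2 fold change -0.75 ± 0.14 (SE), edgeR adjusted p = 0.00119). These 4 calls held with library totals and on leaving out each library in turn. The count of lower calls did not. With library totals 5 nuclear members were lower and 2 higher. The nuclear count was 62 without 3D Cxcl5-/- replicate 1, 7 without 3D Cxcl5-/- replicate 2 and 8 without 2D Cxcl5-/- replicate 1. It was 10 without 2D WT replicate 2 and 11 without 3D WT replicate 1. The shares over all genes in these fits are not set beside the counts. The counts thus show a dependence on single libraries, not a change of the members alone.

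The mitochondrial mRNAs did not move together. From 2D WT to 3D WT the falls in complex I mRNAs ran from -0.28 for mt-Nd1 to -1.39 for mt-Nd4l on the log2 scale, with mt-Nd2 at -1.36 ± 0.36 (SE) and mt-Nd4 at -0.71 ± 0.17 (SE). mt-Nd2 in 2D WT was uneven, at 25.5, 25.2 and 77.5 CPM. mt-Co1, the catalytic subunit of complex IV, rose (log2 fold change 0.46 ± 0.13 (SE), edgeR adjusted p = 0.00992) and so did mt-Co2 (log2 fold change 0.30 ± 0.11 (SE), edgeR adjusted p = 0.0385), though the mt-Co2 call was lost without any 1 of 5 libraries (adjusted p from 0.0504 to 0.0993) and with library totals, and the mt-Nd1 call without any 1 of 4 (0.0857 to 0.165).

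mt-Nd4, a proton-pumping subunit of complex I, was at 39.7, 53.5 and 50.3 CPM in 3D WT and 106, 152 and 155 CPM under the label 3D Cxcl5-/- (log2 fold change 1.52 ± 0.17 (SE), edgeR adjusted p = 8.59e-06). In 2D it was at 69.2, 93.8 and 71.8 CPM in WT and 51.6, 57.9 and 68.1 CPM in Cxcl5-/-. The 3D Cxcl5-/- libraries lay above all others of this table, and the interaction was 1.93 ± 0.24 (SE) (edgeR adjusted p = 7.06e-05).

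mt-Nd5, a further pumping subunit, was at 55.4, 87.5 and 73.9 CPM in 3D WT and 126, 204 and 214 CPM in 3D Cxcl5-/- (log2 fold change 1.33 ± 0.19 (SE), edgeR adjusted p = 9.09e-05). mt-Cytb, the cytochrome b of complex III, rose (log2 fold change 0.62 ± 0.11 (SE), edgeR adjusted p = 0.000504), as did mt-Nd1 at 0.43 ± 0.10 (SE). mt-Nd2 (log2 fold change 1.00 ± 0.36 (SE), edgeR adjusted p = 0.0381) lost its call without any 1 of 5 libraries, with log2 fold changes from 0.79 to 1.13, and mt-Atp6 (log2 fold change 0.32 ± 0.11 (SE), edgeR adjusted p = 0.0276) without any 1 of 4 (adjusted p from 0.0728 to 0.137).

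mt-Co1 went the other way, from a mean of 6892 ± 274 CPM (SD, n = 3) for 3D WT to 4806 ± 1164 CPM (SD, n = 3) for 3D Cxcl5-/- (log2 fold change -0.52 ± 0.13 (SE), edgeR adjusted p = 0.00484), with mt-Co2 (log2 fold change -0.38 ± 0.11 (SE), edgeR adjusted p = 0.0123). Both lost their calls with library totals, and mt-Co2 also without 3D Cxcl5-/- replicate 2 (-0.23, adjusted p = 0.118). A ratio within a library does not depend on the scaling: mt-Nd4 had 0.696 ± 0.122 counts per 100 mt-Co1 counts in 3D WT, 3.05 ± 1.16 in 3D Cxcl5-/-, 1.57 ± 0.341 in 2D WT and 1.23 ± 0.172 in 2D Cxcl5-/- (SD, n = 3). The lowest 3D Cxcl5-/- library, at 1.72, lay above the highest 3D WT library, at 0.813. Among the WT spheroids of the conditioned medium table the ratio varied more within groups. It ran from 0.343 to 1.399 in control medium, 0.613 to 1.002 in M0-CM and 0.635 to 2.68 in M1-CM. M1-CM replicate 2, at 2.68, lay above that lowest 3D Cxcl5-/- library, and all others of the conditioned medium table lay below it. 2D WT replicate 2, at 1.96, and the WT libraries of the overexpression table, at 1.89 and 1.87, also lay above that lowest 3D Cxcl5-/- library. A ratio in the 3D Cxcl5-/- range thus occurred in WT cells of each table.

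**Figure D4:**
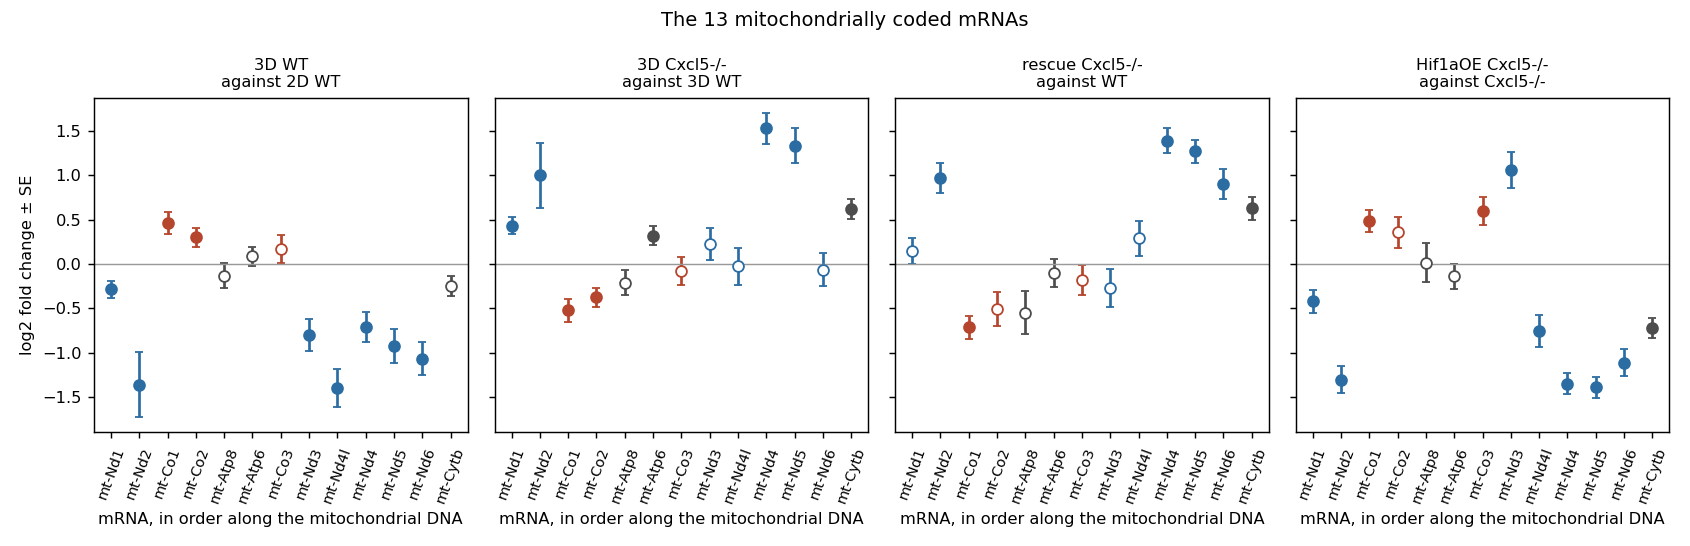
Log2 fold change ± SE of the 13 mitochondrial mRNAs, in their order along the mitochondrial DNA, in 4 comparisons; blue marks complex I, red complex IV and grey complexes III and V, and filled points passed the test. mt-Nd4 and mt-Nd5 are the highest points in both knockout panels, at 1.52 and 1.33 and at 1.39 and 1.26, and the lowest in Hif1aOE Cxcl5-/-, at -1.34 and -1.39.

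From 2D to 3D within the Cxcl5-/- label, mt-Nd4 (1.22), mt-Nd5 (0.65), mt-Cytb (0.55) and mt-Atp6 (0.62) rose on the log2 scale. mt-Nd6, mt-Nd4l and mt-Nd3 fell there, at -1.04, -0.99 and -0.68. The mt-Nd5 call was lost without 3D Cxcl5-/- replicate 3 (adjusted p = 0.0623). mt-Nd4l and mt-Nd4 lie next to each other and overlap on 1 strand, and mt-Nd4l is one of the mRNAs with an identical copy that holds counts.

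The overexpression table repeats the knockout contrast in 3D with other libraries and asks what Hif1a or Myc changes in the knockout. In Cxcl5-/- against WT, 46 of 81 nuclear members fell and 0 rose, where 24.3% of all tested genes fell and 17.6% rose, and the median was -0.52 against -0.30 over all genes. Over both genomes the count of 47 lower members went to 27 without Cxcl5-/- replicate 1, where 11.7% of all genes fell, and to 71 when only the groups compared entered the fit, where 38.8% fell. Without Cxcl5-/- replicate 1 the nuclear median was -0.50 against -0.53 over all genes, and without replicate 2 it was -0.56 against -0.52. By complex the falls were 17 of 37 in I, 3 of 4 in II, 6 of 8 in III, 9 of 15 in IV and 11 of 17 in V, and 9 of 11 core subunits fell. The WT libraries here are those with more genes detected than the rest.

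In complex I, Ndufs1 (log2 fold change -0.70 ± 0.11 (SE), edgeR adjusted p = 0.000354) and Ndufb3, an accessory subunit of the membrane arm (log2 fold change -0.96 ± 0.21 (SE), edgeR adjusted p = 0.00421), fell, and Ndufv3 was at 106 and 99.0 CPM in WT and 57.3 and 59.9 CPM in Cxcl5-/-. In complex II the iron-sulphur subunit Sdhb fell (log2 fold change -0.57 ± 0.12 (SE), edgeR adjusted p = 0.00273), whereas Sdha, the flavoprotein with the catalytic site, was at 152 and 131 CPM in WT and 161 and 152 CPM in Cxcl5-/- and was not called. Uqcrfs1 was at 57.0 and 56.8 CPM in WT and 32.2 and 33.2 CPM in Cxcl5-/- (log2 fold change -0.80 ± 0.13 (SE), edgeR adjusted p = 0.000531).

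Atp5b was at 677 and 657 CPM in WT and 429 and 430.1 CPM in Cxcl5-/- (log2 fold change -0.64 ± 0.10 (SE), edgeR adjusted p = 0.000362), and Atp5md, a small membrane subunit, had the largest fall in complex V (log2 fold change -1.10 ± 0.20 (SE), edgeR adjusted p = 0.00133). Cox6a2 was at 2.73 and 2.84 CPM in WT and 0.498 and 0.710 CPM in Cxcl5-/- (log2 fold change -2.20 ± 0.43 (SE), edgeR adjusted p = 0.00197), a low level in both. Cox6a1 (-0.89), Atp5g2 (-0.78) and Uqcrq (-0.90), a small complex III subunit, fell on the log2 scale and lost their calls without Cxcl5-/- replicate 1 (adjusted p = 0.0752, 0.0624 and 0.0937).

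The mitochondrial mRNAs split again. mt-Nd4 was at 204 and 190.1 CPM in WT and 516 and 516 CPM in Cxcl5-/- (log2 fold change 1.39 ± 0.14 (SE), edgeR adjusted p = 1.49e-05), and mt-Nd5 at 289 and 267 CPM in WT and 665 and 672 CPM in Cxcl5-/- (log2 fold change 1.26 ± 0.13 (SE), edgeR adjusted p = 1.87e-05). mt-Nd2 (0.96), mt-Nd6 (0.89) and mt-Cytb (0.63) rose and mt-Co1 fell (log2 fold change -0.71 ± 0.13 (SE), edgeR adjusted p = 0.00127). mt-Nd4 had 1.87 and 1.89 counts per 100 mt-Co1 counts in WT and 7.91 and 8.20 in Cxcl5-/-.

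Set side by side, the knockout contrasts of both tables, which share no library, tested 80 nuclear members in common. The same 30 were lower in both, 76.9% of the 39 lower in the first and 65.2% of the 46 lower in the other, 92.5% had the same sign and 0 were called in opposite directions. Over the 21058 genes tested in both, the shares were 59.9% and 70.1%, 76.5% had the same sign and 1.24% were called in opposite directions. Of the 13 mitochondrial mRNAs, 4 were higher in both (mt-Nd2, mt-Nd4, mt-Nd5 and mt-Cytb), mt-Co1 was lower in both and 0 were called in opposite directions.

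Hif1aOE Cxcl5-/- was set against Cxcl5-/- to ask what stabilised Hif1a changes in the knockout. Nuclear subunits were nearly all higher, at 75 of 81 tested, and 1 was lower, where 20.5% of all genes rose and 15.0% fell, with a median log2 fold change of 1.04 against 0.16 over all genes. All tested nuclear members of complexes III (8) and V (17) rose, with 36 of 37 in complex I, 11 of 15 in IV and 3 of 4 in II. The complex medians were 1.00 in I, 0.52 in II, 1.11 in III, 1.16 in IV and 1.16 in V.

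Ndufa4 had the largest rise among the nuclear members with a mean of 50 counts or more (log2 fold change 1.80 ± 0.19 (SE), edgeR adjusted p = 2.07e-05). Uqcrfs1 was at 91.1, 103 and 75.1 CPM in Hif1aOE Cxcl5-/- against 32.2 and 33.2 CPM in Cxcl5-/- (log2 fold change 1.46 ± 0.12 (SE), edgeR adjusted p = 5.29e-06). Every overexpressing library lay above both knockout libraries. Cox6a1 rose as far (log2 fold change 1.53 ± 0.22 (SE), edgeR adjusted p = 0.000192), with Cox4i1, the largest nuclear complex IV subunit, at 1.16 ± 0.16 (SE), and in complex V Atp5j2 (log2 fold change 1.70 ± 0.18 (SE), edgeR adjusted p = 2.98e-05) and Atp5b (log2 fold change 0.85 ± 0.09 (SE), edgeR adjusted p = 2.68e-05).

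Sdha was the core subunit that was not called, at 158, 162 and 146 CPM in Hif1aOE Cxcl5-/- against 161 and 152 CPM in Cxcl5-/- (log2 fold change -0.01 ± 0.09 (SE), edgeR adjusted p = 0.967), while Sdhd rose (log2 fold change 0.80 ± 0.12 (SE), edgeR adjusted p = 0.000257). The others not called were Ndufs3, Cox6c2, Cox7a1 and Cox6a2. Cox8b was called lower on 3 and 9 counts in Cxcl5-/- and 0 in Hif1aOE Cxcl5-/-, and that call was lost on leaving out any library.

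The mitochondrial mRNAs again did not move together, in a contrast that shares the Cxcl5-/- libraries with the one above. mt-Nd5 (log2 fold change -1.39 ± 0.11 (SE), edgeR adjusted p = 4.37e-06) and mt-Nd4 (log2 fold change -1.34 ± 0.12 (SE), edgeR adjusted p = 8.06e-06) fell most, to 232, 262 and 273 CPM and 199, 195 and 215 CPM. mt-Nd2 (-1.30), mt-Nd6 (-1.11), mt-Nd4l (-0.75), mt-Cytb (-0.72) and mt-Nd1 (-0.42) also fell. mt-Nd3 (log2 fold change 1.06 ± 0.20 (SE), edgeR adjusted p = 0.00153), mt-Co3 (0.60) and mt-Co1 (0.48) rose. Leaving out 1 library ended the call of mt-Nd1 in 4 of 5 cases, of mt-Co1 in 2 (either knockout library) and with library totals, of mt-Co3 without Cxcl5-/- replicate 2 (adjusted p = 0.0914) and of mt-Nd4l without replicate 1 (0.107).

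**Figure D5:**
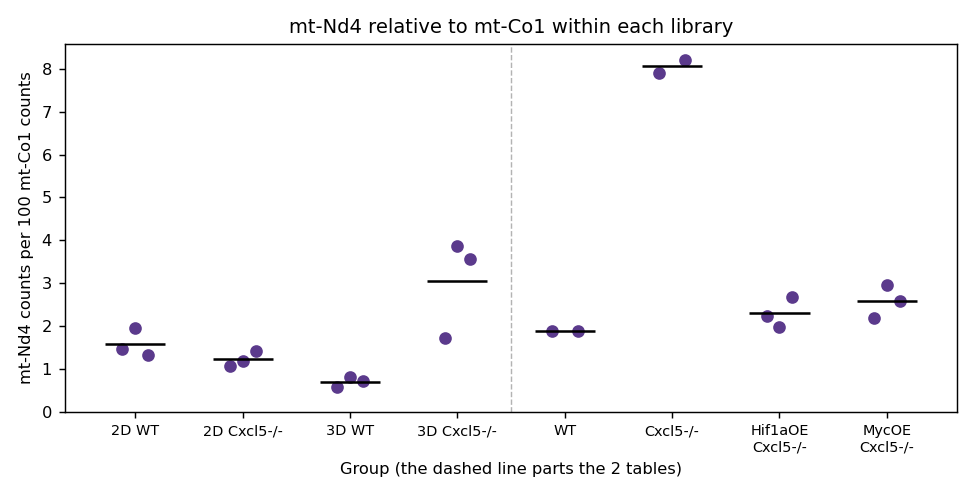
Counts of mt-Nd4 per 100 counts of mt-Co1 in 8 groups of the 2D and 3D table and the overexpression table, with a point per library and bars at the means. The means are 0.696 in 3D WT and 3.05 in 3D Cxcl5-/-, and in the overexpression set 1.88 in WT, 8.06 in Cxcl5-/-, 2.29 in Hif1aOE Cxcl5-/- and 2.57 in MycOE Cxcl5-/-.

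In MycOE Cxcl5-/- against Cxcl5-/-, 79 of 81 nuclear members rose and 0 fell, where 21.6% of all genes rose and 18.0% fell, and the median was 1.33 against 0.11 over all genes. All 37 nuclear members of complex I, all 8 of III and all 17 of V rose, with 14 of 15 in IV and 3 of 4 in II. Uqcrh, the hinge protein of complex III, was at 352, 326 and 309 CPM in MycOE Cxcl5-/- against 77.7 and 84.9 CPM in Cxcl5-/- (log2 fold change 2.02 ± 0.15 (SE), edgeR adjusted p = 1.61e-06). Ndufs5, an accessory subunit of complex I, was at 93.9, 91.6 and 76.9 against 19.4 and 23.6 CPM (log2 fold change 2.02 ± 0.18 (SE), edgeR adjusted p = 6.14e-06).

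Atp5mpl, a small proteolipid of complex V, was at 161, 153 and 127 CPM in MycOE Cxcl5-/- against 29.1 and 30.0 CPM in Cxcl5-/- (log2 fold change 2.31 ± 0.22 (SE), edgeR adjusted p = 9.20e-06). Cox6a2 rose (log2 fold change 2.29 ± 0.41 (SE), edgeR adjusted p = 0.000895), as did Cox4i1 (1.62 ± 0.16 (SE)), Atp5g2 (1.85 ± 0.18 (SE)) and Uqcrfs1 (1.58 ± 0.12 (SE)). Sdha was again not called, at 184, 164 and 167 CPM (log2 fold change 0.13 ± 0.09 (SE), edgeR adjusted p = 0.277), with Sdhd at 1.20 and called. Among mitochondrial mRNAs mt-Nd4 (-1.19), mt-Nd5 (-1.17), mt-Nd2 (-0.89), mt-Nd6 (-0.85) and mt-Cytb (-0.42) fell, and mt-Nd3 (1.31), mt-Co3 (0.93), mt-Co2 (0.57) and mt-Co1 (0.45) rose. The calls of mt-Cytb and mt-Co1 were lost without either knockout library, and that of mt-Co2 without any 1 of 4 libraries (adjusted p from 0.0523 to 0.108). Those of mt-Co1 and mt-Co2 were also lost with library totals.

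Set against each other, MycOE Cxcl5-/- had 30 nuclear members higher than Hif1aOE Cxcl5-/- and 0 lower, where 9.54% of all genes were higher and 9.73% lower, and edgeR called 0 of 13 mitochondrial mRNAs. At an unadjusted p under 0.05, 5 of these were higher and 0 lower, where 4247 of 28730 genes were higher and 4498 lower. DESeq2's Wald test called 4 of the mitochondrial mRNAs higher. Atp5mpl (log2 fold change 1.06 ± 0.18 (SE), edgeR adjusted p = 0.00168), Uqcrh (log2 fold change 0.90 ± 0.12 (SE), edgeR adjusted p = 0.000409), Ndufs5 (log2 fold change 0.84 ± 0.15 (SE), edgeR adjusted p = 0.00230) and Cox7a2l, a paralog of Cox7a2 (log2 fold change 0.81 ± 0.11 (SE), edgeR adjusted p = 0.000364), were among the nuclear members called higher. Sdhc was higher at 0.46 ± 0.09 (SE) and Cox6a2 at 1.46 ± 0.33 (SE). The nuclear count was 61 without Hif1aOE Cxcl5-/- replicate 2, 15 without its replicate 1 or 3, 17 without MycOE Cxcl5-/- replicate 1 and 19 without its replicate 2. The share over all genes is given next for the first of these fits only. Of the mitochondrial mRNAs 10 were called higher without Hif1aOE Cxcl5-/- replicate 2, where 11.3% of all genes were higher, 2 without MycOE Cxcl5-/- replicate 1 and 1 without its replicate 3. Hif1aOE Cxcl5-/- replicate 2 was the highest of its group for Uqcrh, at 218 CPM, and for Atp5mpl, at 97.0 CPM.

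The conditioned medium table asks whether macrophage medium changes WT spheroids. By edgeR 0 members were called in any of its comparisons. For M1-CM against control medium 0.0156% of all genes rose and 0% fell, for M1-CM against M0-CM 0.0156% rose and 0% fell, and for M0-CM against control 0% rose and 0% fell. Without adjustment, 2 of 91 members were higher and 1 lower at p under 0.05 for M1-CM against control, where 586 of 19207 genes were higher and 317 lower. For M1-CM against M0-CM 0 members were, where 309 genes were higher and 189 lower. For M0-CM against control 2 members were higher, where 412 genes were higher and 157 lower. The smallest adjusted p of a member over the 3 comparisons was 0.965, and DESeq2's Wald test called 0 members too. Over all genes DESeq2 called 0.339% higher and 0.142% lower for M1-CM against control. It called 0.0871% and 0.0475% for M1-CM against M0-CM, and 0.0825% and 0.0183% for M0-CM against control. M1-CM replicate 2 had the lowest nuclear share of this table, at 0.599%, where control medium ran from 0.768% to 0.946%, and its mitochondrial share of 0.594% was close to the 0.593% of control replicate 2. Its ratio of mitochondrial to nuclear members was 0.991, where control medium ran from 0.409 to 0.627. The median log2 fold change of the mitochondrial mRNAs was 0.69 for M1-CM against control and 0.76 against M0-CM. Without M1-CM replicate 2 these medians were 0.06 and 0.05.

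Genes around the chain were counted in the same comparisons. All-gene shares were those given above: 22.0%, 25.3% and 24.3% lower and 22.2%, 19.7% and 17.6% higher in 3D WT against 2D WT, 3D Cxcl5-/- against 3D WT and the knockout of the overexpression table, and 20.5% and 21.6% higher with Hif1a and Myc. Of 52 tested assembly factors, which build the complexes but are not part of them, 26 were lower and 2 higher in 3D WT against 2D WT, 13 and 5 in 3D Cxcl5-/- against 3D WT, and 14 and 4 in Cxcl5-/- against WT of the overexpression table, so that the shares lower in the knockouts were close to those of all genes. In Hif1aOE Cxcl5-/- 33 were higher and 1 lower, and in MycOE Cxcl5-/- 42 and 1. Of 29 genes of mitochondrial DNA expression, 17 were lower and 1 higher in 3D WT, 11 and 2 in 3D Cxcl5-/-, 11 and 1 in the knockout of the overexpression table, and 15 higher and 2 lower with Hif1a and 21 and 0 with Myc. Trmt10c, part of the enzyme that cuts tRNAs out of mitochondrial precursors, had log2 fold changes of -0.91, -0.80, -0.90, 0.85 and 0.72 in that order, and Pnpt1, a mitochondrial RNA exonuclease, -0.48, -0.74, -1.05, 1.02 and 0.91, all called by edgeR. The genes of these lists were read with TMM scaling only, on which the comparison of 3D Cxcl5-/- with 3D WT depends.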

How the data were processed

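RNA-seq of 31 libraries of Panc02 cells was analysed in 3 tables. The authors prepared stranded TruSeq libraries from total RNA, sequenced read pairs on a NovaSeq, aligned them to GRCm38 (mm10) with HISAT2 and deposited StringTie gene counts that were not normalized. The annotation release, the strand setting and the tool versions are not given in the sources used here. Reads that fit several places, such as nuclear copies of mitochondrial genes, can be split between them by such counting. All value columns were used, and columns were matched to samples by their labels.

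The deposited counts were tested with the quasi-likelihood test of edgeR 4.0.16 (limma 3.58.1, R 4.3.3). Libraries were scaled by TMM, genes with few counts were removed by filterByExpr, and each table was fitted once with all its groups and no replicate block, with Benjamini-Hochberg adjustment over all genes tested, at an adjusted p under 0.05. Standard errors were taken as the absolute log2 fold change over the root of the F statistic. The interaction is the genotype effect in 3D minus that in 2D. The study used DESeq2, which served here (1.42.0) as an alternative, beside its size factors, library totals, scaling without mitochondrial genes, no filter, at least 10 counts in every sample, a replicate block, a fit on the groups compared, each replicate left out in turn and copies summed with their genes. Shares, ratios and figures were made with Python 3.11.15, numpy 2.4.6, pandas 2.3.3 and matplotlib 3.10.9. The fit was tested on simulated counts.

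The genes named are the 13 mitochondrial mRNAs, 11 core nuclear subunits, paralog groups and, for each comparison and complex, the nuclear member with the largest called change in each direction without overlap of the groups and with a mean count of at least 50. The members and lists were chosen with earlier results of these data known. Cox7c, Cox7a2l, Uqcrc2 and repeats of a named gene in other comparisons were chosen after their values were seen, as were Trmt10c, Pnpt1 and the genes named under other observations. Sequences of promoters are from RefSeq, and copies were aligned to GRCm38. Counting error is small at 41542533 to 78498230 counts per library, and the 2 or 3 libraries of a group limit the precision. No 2 libraries of a group agreed within sampling noise.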

Additional observations from a re-analysis of the deposited data

Results flagged for a closer look

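The genotype effect differed between 3D and 2D culture by the interaction test of edgeR for 6 members that were higher and 18 that were lower, which is the difference between the effects in the libraries labelled 3D Cxcl5-/- against 3D WT and in 2D Cxcl5-/- against 2D WT. Among the mitochondrially coded mRNAs the log2 interactions were 2.16 for mt-Nd2, 1.93 for mt-Nd4, 1.57 for mt-Nd5, 0.80 for mt-Cytb, 0.54 for mt-Atp6 and 0.42 for mt-Nd1. For mt-Nd2 the 2D WT libraries were uneven, with replicate 3 at 77.5 CPM and the others at 25.5 and 25.2 CPM. The mt-Nd1 call was lost on leaving out any 1 of 9 of the 12 libraries (adjusted p from 0.0517 to 0.140).

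In complexes I and II the log2 interactions were -0.59 for Ndufa7, -0.55 for Ndufv3, -0.38 for Ndufv1 and -0.54 for Sdhd. In complex III they were -0.81 for Uqcrc2 and -0.75 for Uqcrfs1, and in complex IV -0.89 for Cox6a1, -0.70 for Cox8a, -0.66 for Cox7a2 and -0.55 for Cox7a2l. In complex V they were -1.06 for Atp5g2, -0.49 for Atp5b and -0.43 for Atp5g1. With library totals Atp5g2, Cox6a1, Uqcrc2 and Uqcrfs1 passed the test and the other nuclear members named here did not. Leaving out 1 of the 12 libraries at a time ended the call of Ndufa7 in 10 cases, of Ndufv1 in 7, of Ndufv3, Cox7a2 and Cox7a2l in 6 each, of Atp5g1 in 5 and of Atp5b in 2. Cxcl5 transcript was higher under the label 3D Cxcl5-/- than in 3D WT, and summed epithelial markers were lower; their part was not tested.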

How the results depend on the processing

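Over 141 pairs of a named gene and a comparison, 9 alternatives gave 1193 values with the same direction and side of the threshold, 50 that were no longer past it, 1 that came to pass it and 3 that turned direction. Leaving out 1 library at a time gave 760 with the same direction and side of the threshold, 112 no longer past it, 1 that came to pass it and 2 that turned. The turned values all belong to Sdha, which was not called: 0.00586 without a filter and 0.0216 with the replicate block for Hif1aOE Cxcl5-/- against Cxcl5-/-, and -0.21 with library totals for MycOE Cxcl5-/-; for Hif1aOE Cxcl5-/- it ranged from -0.0406 to 0.0466 with 1 library left out. Leaving out mitochondrial genes from the scaling, or summing copies, an alternative chosen after seeing the data, changed 0 of these calls.

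With library totals the members called were 5 higher and 67 lower for 3D WT against 2D WT, 13 and 9 for 3D Cxcl5-/- against 3D WT, and 5 lower for the interaction. Without a filter 22 were lower for 3D Cxcl5-/- against 3D WT and 6 for the interaction. With only the groups compared in the fit, 26 were lower for 3D Cxcl5-/- against 3D WT, 3 higher and 2 lower for 2D Cxcl5-/- against 2D WT, and 71 lower for Cxcl5-/- against WT of the overexpression table. DESeq2's Wald test called 1 higher in 2D. Library totals move all genes of a library together, so those counts are not about the members alone. For most of the other settings the share over all genes is not given here, and the counts are not read as results about the members. The cause of these shifts was not tested.

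The replicate numbers did not pair the samples: deviations of same-numbered samples correlated over 0.1 in 1 of 18 pairs of the 2D and 3D table, 3 of 9 of the conditioned medium table and 0 of 13 of the overexpression table. With the replicate block 2 members were lower in 2D, 28 lower for the interaction and 47 higher for MycOE against Hif1aOE Cxcl5-/-.

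Leaving out 1 library at a time gave 5 to 7 higher and 28 to 36 lower for 3D WT against 2D WT, 4 to 6 and 20 to 76 for 3D Cxcl5-/- against 3D WT, 0 and 0 to 1 in 2D, 6 to 7 and 56 to 80 for 3D against 2D Cxcl5-/-, and 4 to 6 and 7 to 65 for the interaction. In the overexpression table it gave 5 and 27 to 36 for Cxcl5-/- against WT, 70 to 80 and 5 to 7 with Hif1a, 79 to 83 and 4 to 5 with Myc, and 15 to 71 and 0 for Myc against Hif1a. There a lone remaining library is assumed to vary like the other groups. In the conditioned medium table it gave 0 throughout. Calls over all genes also change from fit to fit, so these ranges are not about the members alone. Members at few counts (Cox6a2, Cox8b and the paralogs not tested) are limited by depth.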

Other observations

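Carriers and regulators outside the symbol rule were also measured. Cycs, the cytochrome c that links complexes III and IV, had log2 fold changes of -1.25 in 3D WT against 2D WT, -0.56 in 3D Cxcl5-/- against 3D WT, -1.47 in Cxcl5-/- against WT of the overexpression table, 1.51 with Hif1a and 1.54 with Myc, all called by edgeR. Higd1a, a hypoxia-inducible protein that associates with complex IV, went the other way in 3D WT, at 2.19, and had -1.10, -1.69, 1.52 and 1.79 in the other comparisons in that order, all called.

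Of 10 regulators of mitochondrial biogenesis, 5 were lower and 3 higher in 3D WT against 2D WT, 5 lower and 1 higher in 3D Cxcl5-/- against 3D WT, 3 lower and 1 higher in the knockout of the overexpression table, 4 higher and 3 lower with Hif1a and 2 higher and 2 lower with Myc. Over all genes 22.0%, 25.3% and 24.3% were lower in the first 3 of these comparisons and 22.2%, 19.7% and 17.6% higher, 20.5% higher and 15.0% lower with Hif1a, and 21.6% higher and 18.0% lower with Myc. Ppargc1a, a coactivator of respiratory genes, was at 2.59 to 3.47 CPM in 3D WT, at most 0.0916 CPM in 3D Cxcl5-/- and at most 0.0278 CPM in 2D. In the overexpression table it was at 0.969 to 1.26 CPM in WT, at most 0.0812 CPM in Cxcl5-/-, 0.419 to 0.608 CPM in Hif1aOE Cxcl5-/- and 4.60 to 6.72 CPM in MycOE Cxcl5-/-. Nrf1, the factor whose core motif was counted in the promoters, was at mean levels of 48.4 CPM in 3D WT and 37.2 CPM in 3D Cxcl5-/- (log2 fold change -0.38, edgeR adjusted p = 0.00112). Genes outside the symbol rule, Nrf1, Cycs and Higd1a among them, were read with TMM scaling only. The comparison of 3D Cxcl5-/- with 3D WT depends on the scaling, as given above. No assembly factor, regulator or mitochondrial DNA expression gene was called by edgeR in the conditioned medium table.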
